A study of Arabidopsis thaliana with 2 samples.

Results

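The SPL genes of the age pathway, 10 loci among the 33557 of the deposited expression table, were examined in leaves of Atclb1-1 plants and of wild type plants. The 10 loci were taken by locus identifier from a fixed list of SQUAMOSA PROMOTER BINDING PROTEIN-LIKE genes that carry a site for the microRNA miR156, namely SPL2, SPL3, SPL4, SPL5, SPL6, SPL9, SPL10, SPL11, SPL13A and SPL15. The Atclb1-1 plants were homozygous for a T-DNA insertion in AtCLB, a gene for a calcium-dependent lipid-binding protein, and the labels describe the allele as loss of function. The wild type plants were of the same ecotype, Columbia. Both were 2 weeks old, were grown under a 16-h photoperiod at 23 °C, and gave 1 RNA-seq library of leaves each. With 1 library per genotype no difference could be tested and no p-value is given. The values are FPKM, fragments counted on a gene per kilobase of transcript and per library total.

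SPL proteins are transcription factors with an SBP domain, which binds DNA at a GTAC core. In young plants miR156 is abundant and holds SPL transcripts and their translation down. As the shoot ages miR156 declines, SPL activity grows, and leaves pass from juvenile to adult form before the plant flowers. SPL proteins in turn raise miR172, which acts on the AP2-like repressors of flowering.

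The letters that join these 10 genes are the microRNA and its site, and they separate SPL genes with a site from those without. The subgroups used below were not set by these letters. SPL2, SPL6, SPL9, SPL10, SPL11, SPL13A and SPL15 have the same site but fall in different subgroups. Mature miR156 and miR157 were read from the TAIR10.1 genome at the annotated microRNA positions, with the seed (bases 2 to 8) in capitals. The forms from MIR156a to MIR156f were identical, and those of MIR156g, MIR156h and MIR157d had the same seed.
miR156a (MIR156a, chr2:10676534-10676553, minus strand): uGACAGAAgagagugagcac
miR156g (chr2:8412589-8412608, minus strand): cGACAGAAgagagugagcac
miR156h (chr5:22597087-22597106, minus strand): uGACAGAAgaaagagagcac
miR157d (chr1:18026989-18027008, minus strand): uGACAGAAgauagagagcac

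A site with at most 3 mismatches to the 20-base complement of miR156a was found in all 10 SPL loci, and in 22 of their 24 annotated transcripts. Only 13 of 27440 protein-coding genes (0.0474%) held such a site, and 11 of those 13 were the 10 SPL loci and SPL13B, the near copy of SPL13A. The sites are printed 5′ to 3′ on the strand of the transcript, in DNA letters, and capitals mark bases that differ from the perfect complement of miR156a.
SPL2, SPL6, SPL9, SPL10, SPL11, SPL13A, SPL15 and SPL13B: gtgctcTctctcttctgtca
SPL3: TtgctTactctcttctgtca
SPL4: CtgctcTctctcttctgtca
SPL5: CCgctcTctctcttctgtca

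The shared form had 1 mismatch and lay within the coding sequence of 7 of the 10 loci, for example in the last exon of SPL9 (chr2:17589066-17589085, plus strand), of SPL11 (chr1:9503618-9503637, plus strand) and of SPL10 (chr1:9505541-9505560, minus strand). In 1 of 7 annotated SPL10 transcripts the same bases fell in the 3′ UTR. The 3 short SPL genes had the site in the 3′ UTR, with 2 mismatches in SPL3 (chr2:14305878-14305897, plus strand), 2 in SPL4 (chr1:19807090-19807109, plus strand) and 3 in SPL5 (chr3:5140598-5140617, minus strand). Of 3 annotated SPL4 transcripts, the 1 with the site has 2 exons, while the other 2 have 3 exons and do not hold the site. The table gives 1 value per locus, so the SPL4 forms with and without the site could not be told apart. The SPL loci known not to answer to miR156 (SPL1, SPL7, SPL8, SPL12, SPL14 and SPL16) had at least 6 mismatches at their best match.

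**Figure D1:**
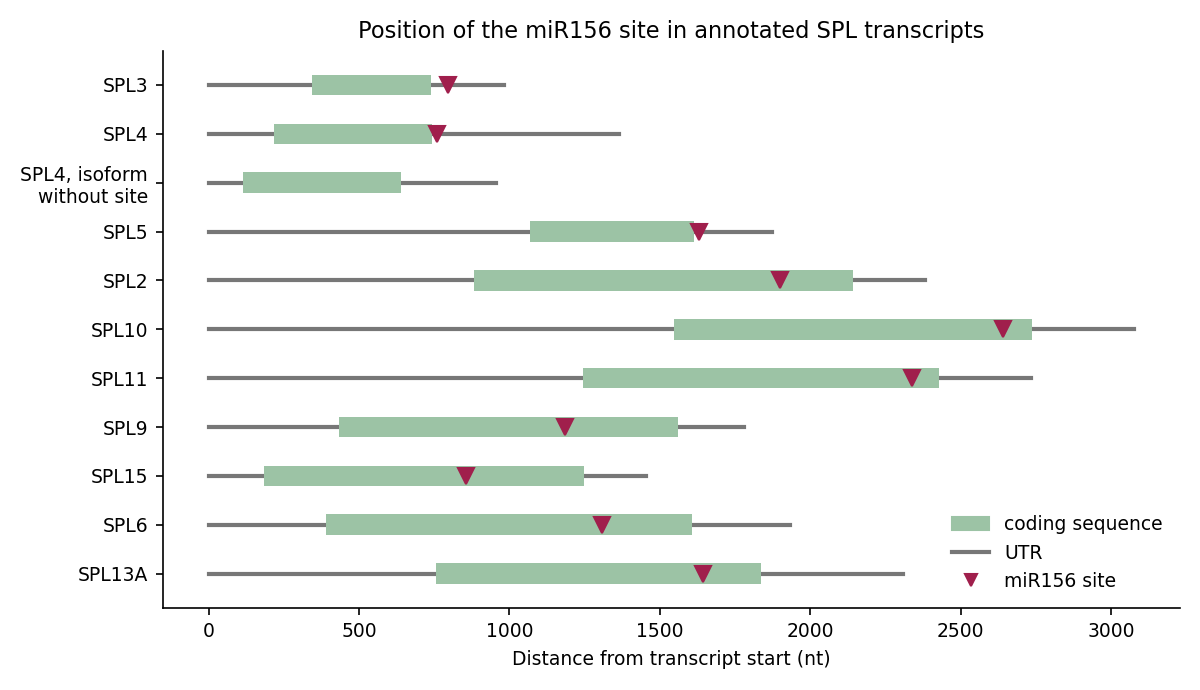
Each row is an annotated transcript drawn to scale from its start (x axis, nt), with the coding sequence as a green bar, UTRs as a grey line and the miR156 site as a triangle. The site lies behind the coding sequence in SPL3, SPL4 and SPL5 and inside it in the transcripts drawn for the other genes, and the SPL4 isoform shown without a triangle lacks it.

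The targeted gene was measured first. AtCLB (AT3G61050) stood at 13.5 FPKM in the library labelled Atclb1-1, against 39.2 FPKM in wild type. The transcript was thus lower but present in the library labelled mutant. Steps between the lowest values put the Atclb1-1 library at 1.21 times the depth of wild type, with roughly 16700000 to 18200000 mapped fragments in Atclb1-1 and 14300000 to 15400000 in wild type. All 5 leaf markers were abundant in both libraries, and 2 of them were at least 2-fold lower in Atclb1-1. On the log2(FPKM + 1) scale 10.8% of the 18171 loci that reached 1 FPKM in a library were that much lower and 17.2% higher. CA1, a carbonic anhydrase gene, was at 889 FPKM in Atclb1-1 and 2870 FPKM in wild type, and RBCS1A, which encodes a small Rubisco subunit, at 8957 FPKM in Atclb1-1 and 19812 FPKM in wild type. RCA, the Rubisco activase gene, was at 6038 FPKM in Atclb1-1 and 3643 FPKM in wild type, and GLDP1, a glycine decarboxylase gene, at 965 FPKM in Atclb1-1 and 675 FPKM in wild type. Of 7 shoot meristem markers none reached 1 FPKM in either library, and STM, WUS, CLV3 and CUC2 were listed at 0 in both. None of 5 seed markers reached 1 FPKM. Of 8 flower markers 4 passed 1 FPKM, and LFY and SEP2 were listed at 0 in both libraries. Of the 4, 1 was at least 2-fold higher and 1 lower, beside 17.2% and 10.8% of all loci. PI passed through Atclb1-1 alone, and SEP3 and AG through wild type alone. PI was at 1.36 FPKM in Atclb1-1 and 0.0635 FPKM in wild type, while SEP1 was at 4.59 FPKM in Atclb1-1 and 11.2 FPKM in wild type. SEP3 was at 0.207 FPKM in Atclb1-1 and 1.06 FPKM in wild type, and AG at 0.821 FPKM in Atclb1-1 and 1.38 FPKM in wild type. Of 6 root markers SCR and SHR passed 1 FPKM, and PLT1 and COBL9 were listed at 0.

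SPL10 and SPL11 were higher and SPL3 was lower in Atclb1-1, while the other 5 measured SPL genes lay within 2-fold of wild type. Of the 10 members 8 reached 1 FPKM in at least 1 library. On the scale of log2(FPKM + 1), 2 of these 8 were at least 2-fold higher in Atclb1-1, beside 17.2% of the 18171 loci that passed the same filter. On that scale 1 of 8 was at least 2-fold lower, beside 10.8% of all loci, and 3 of 8 differed either way, beside 28% of all loci. The counts of SPL genes past 2-fold were thus near the background shares. The median difference of the 8 was -0.15, against 0.21 over all loci that passed. In these whole leaves a lower number of cells of a type and less RNA per cell cannot be told apart.

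**Figure D2:**
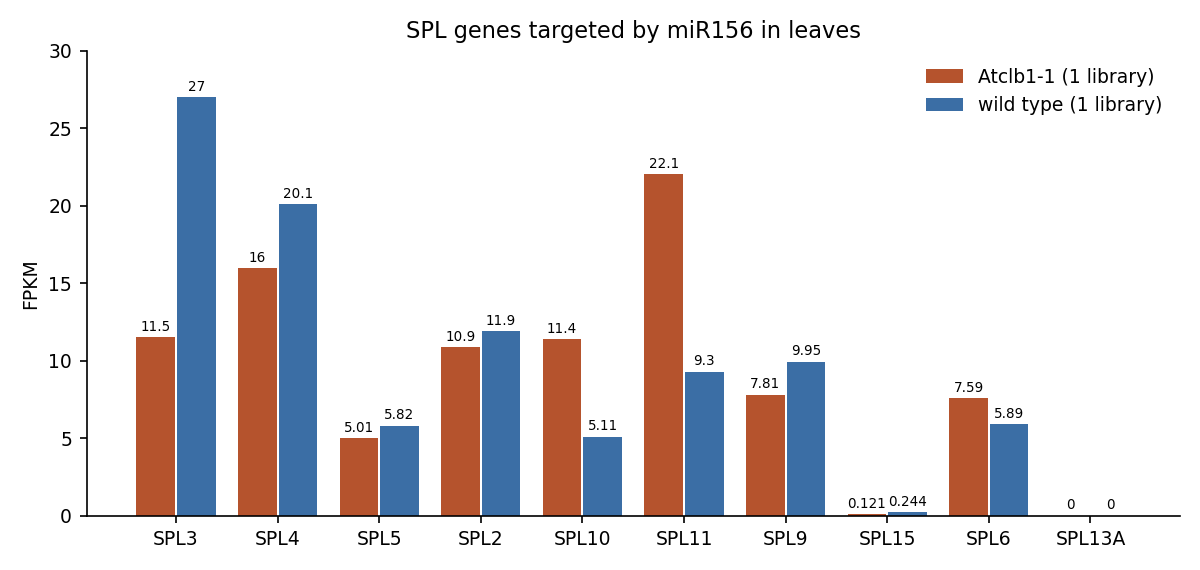
Bars give FPKM (y axis) of each SPL gene in the single Atclb1-1 library and the single wild type library, ordered by subgroup, and there are no error bars because there are no replicates. SPL3 is the highest gene in wild type at 27.0 FPKM, and SPL11 the highest in Atclb1-1 at 22.1 FPKM.

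SPL3, SPL4 and SPL5 encode small proteins made of little more than the SBP domain, and are best known for promoting the floral transition. SPL3 (AT2G33810; TAIR10.1 chromosome 2, 14305001 to 14306072, plus strand) stood at 11.5 FPKM in Atclb1-1, against 27.0 FPKM in wild type. It was 2.34-fold lower, a log2 difference of -1.16, and 8.6% of all loci that passed had a difference at least as low. By transcript length and the steps of low values these FPKM correspond to roughly 188 to 206 fragments in Atclb1-1 and 378 to 408 in wild type. SPL4 (AT1G53160) stood at 16.0 FPKM in Atclb1-1 and 20.1 FPKM in wild type, a log2 difference of -0.32. SPL5 (AT3G15270) was the lowest of the 3, at 5.01 FPKM in Atclb1-1 and 5.82 FPKM in wild type, a log2 difference of -0.18. All 3 genes with the site in the 3′ UTR were thus below their wild type value, but only SPL3 passed 2-fold. Of all loci that passed, 27.0% were at least as low as SPL4 and 31.7% at least as low as SPL5. Being below wild type was not particular to these genes. Among measured genes with a coding site SPL2 (-0.12) and SPL9 (-0.31) were below too, while SPL6, SPL10 and SPL11 were above.

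SPL2, SPL10 and SPL11 encode closely related larger factors that act redundantly in the development of lateral organs, and SPL10 also bears on lamina shape. SPL11 (AT1G27360; chromosome 1, 9500892 to 9504023, plus strand) stood at 22.1 FPKM in Atclb1-1, against 9.30 FPKM in wild type. It was 2.37-fold higher, a log2 difference of 1.16, and 14.0% of all loci that passed had a difference at least as high. SPL10 (AT1G27370; chromosome 1, 9505112 to 9508542, minus strand) stood at 11.4 FPKM in Atclb1-1, against 5.11 FPKM in wild type. It was 2.24-fold higher, a log2 difference of 1.02, with 16.6% of loci at least as high. SPL2 (AT5G43270), on chromosome 5, was at 10.9 FPKM in Atclb1-1 and 11.9 FPKM in wild type, a log2 difference of -0.12. The 2 higher genes were therefore neighbours on the chromosome, while the third gene of the group was not higher.

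SPL10 and SPL11 face each other tail to tail, with 1088 bp between their annotated ends and no other annotated gene overlapping either. Their transcripts shared no stretch of 50 bases with each other or with a transcript of another gene, so that reads of that length could be told apart. SPL11 was 1.93 times SPL10 in Atclb1-1 and 1.82 times in wild type, so the pair kept nearly the same proportion in both libraries. The fragments behind the values were roughly 1005 to 1098 for SPL11 and 605 to 661 for SPL10 in Atclb1-1, against 363 to 392 for SPL11 and 232 to 251 for SPL10 in wild type. Both genes came under 2-fold when the median ratio of the libraries was set to 0, with log2 differences of 0.97 for SPL11 and 0.84 for SPL10, and when the dependence on transcript length and base composition was taken out, with 0.89 for SPL11 and 0.55 for SPL10. With the median ratio at 0 none of the 8 was 2-fold higher, beside 13.8% of all loci, and SPL3 was the 1 that was 2-fold lower, beside 13.4%.

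**Figure D3:**
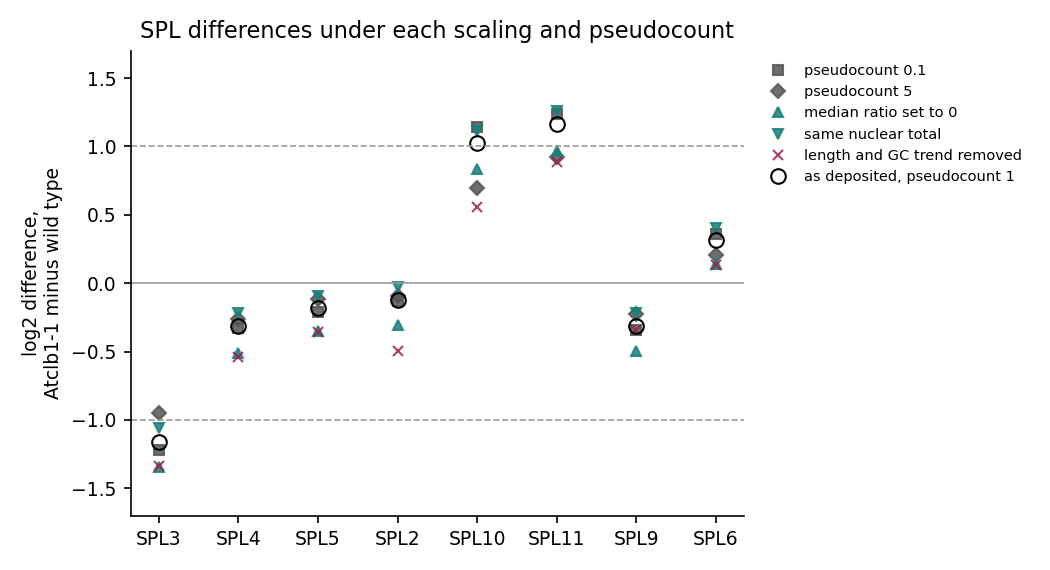
Points give the log2 difference (y axis, Atclb1-1 minus wild type) of each SPL gene at 1 FPKM or more, as deposited (open circles) and under each other scaling, pseudocount or correction, with dashed lines at 2-fold. Each gene keeps its sign under every setting drawn, while SPL10 (0.55 to 1.15), SPL11 (0.89 to 1.26) and SPL3 (-1.35 to -0.95) have points on both sides of a dashed line.

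SPL9 and SPL15 are known for the pace of leaf initiation and the change to adult leaves, and SPL9 also for lowering anthocyanin synthesis and for acting on trichomes. SPL9 (AT2G42200) stood at 7.81 FPKM in Atclb1-1 and 9.95 FPKM in wild type, a log2 difference of -0.31. SPL15 (AT3G57920) was barely detected, at 0.121 FPKM in Atclb1-1 and 0.244 FPKM in wild type, and did not pass the filter. The SPL15 ratio between libraries, 0.496, divided by the ratio that single reads give, 0.826, came to 0.600, which is what 3 reads in Atclb1-1 and 5 in wild type would give. At that depth no difference of SPL15 was detectable.

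SPL6, known for a part in resistance to Pseudomonas syringae carrying avrRps4, was the remaining gene above 0. SPL6 (AT1G69170) stood at 7.59 FPKM in Atclb1-1 and 5.89 FPKM in wild type, a log2 difference of 0.32. Besides SPL10 and SPL11 it was the only one of the 8 measured members with a value above wild type, and 44.2% of all loci were at least as high.

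SPL13A (AT5G50570) was listed at 0 in both libraries, and so was SPL13B (AT5G50670), which lies 30843 bp away on chromosome 5. The coding sequence of SPL13A is identical to that of another locus, and 86.2% of the 50-base stretches of its transcript occur in transcripts of other loci, SPL13B among them. Of 131 measured loci with a coding sequence identical to that of another locus, 124 (94.7%) were listed at 0 in both libraries. Among other protein-coding loci the share was 19.4% (5161 of 26556). The 0 of SPL13A is therefore a value that nearly all such duplicated loci carry in this table, and it gives no reading of SPL13 transcript in these leaves.

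The summed FPKM of the 10 genes was nearly the same in both libraries, 92.4 in Atclb1-1 and 95.3 in wild type, but its make-up differed. SPL3, SPL4 and SPL5 together made 35.2% of the sum in Atclb1-1 and 55.5% in wild type. SPL2, SPL10 and SPL11 made 48.0% in Atclb1-1 and 27.6% in wild type. SPL9 and SPL15 held 8.59% in Atclb1-1 and 10.7% in wild type, and SPL6 held 8.22% in Atclb1-1 and 6.18% in wild type. These shares are taken within a library and do not depend on how the libraries are scaled to each other. They were not corrected for the trend with transcript length and base composition. Its removal moved the log2 difference of SPL10 from 1.02 to 0.55, of SPL11 from 1.16 to 0.89 and of SPL2 from -0.12 to -0.50. That of SPL3 went from -1.16 to -1.34.

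**Figure D4:**
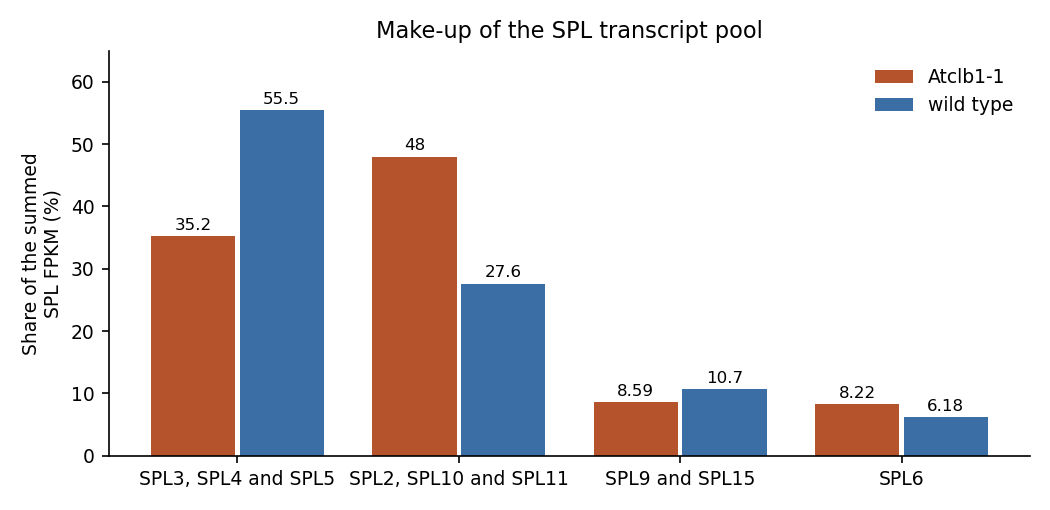
Bars give the share (y axis, percent) of the summed FPKM of the 10 SPL genes held by each subgroup in each single library, without SPL13A, which was listed at 0. The leading subgroup is SPL2, SPL10 and SPL11 in Atclb1-1, at 48.0%, and SPL3, SPL4 and SPL5 in wild type, at 55.5%.

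The order of the genes differed accordingly. In Atclb1-1 SPL11 stood first, followed by SPL4, and SPL3, SPL10 and SPL2 followed between 10.9 and 11.5 FPKM. In wild type SPL3 stood first and SPL4 next, then SPL2, SPL9 and SPL11 between 9.30 and 11.9 FPKM, and SPL10 was the last gene above 1 FPKM. SPL11 was 1.91 times SPL3 in Atclb1-1 and 0.345 times SPL3 in wild type, a 5.55-fold difference between libraries. SPL11 was 2.03 times SPL2 in Atclb1-1 and 0.781 times SPL2 in wild type. SPL6 and SPL5 stood low in both libraries, at 7.59 and 5.01 FPKM in Atclb1-1 and 5.89 and 5.82 FPKM in wild type.

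Several SPL loci share their ground with other annotated genes on the opposite strand, and no source used here says whether the quantification took strand into account. SPL3 shares 1046 bp with the noncoding locus AT2G33815, which was listed at 0 in both libraries. SPL15 lies wholly within AT3G57910, at 6.78 FPKM in Atclb1-1 and 6.32 FPKM in wild type, and SPL5 within AT3G15260, at 44.8 FPKM in Atclb1-1 and 34.2 FPKM in wild type. SPL3, SPL5 and SPL15 values are for this reason uncertain. For SPL3, 92.2% of the 50-base stretches of its transcript are shared with AT2G33815 on the opposite strand. The 0 listed for AT2G33815 does not show that its reads were kept apart from those of SPL3. The annotation also places microRNA loci on the opposite strand of SPL4 (MIR156i) and SPL9 (MIR156j), and in both the annotated mature microRNA covers exactly the 20 bases of the site printed above. SPL2, SPL10 and SPL11 overlap no annotated gene.

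The SPL genes without a miR156 site are mostly larger proteins and include SPL7, the regulator of copper homeostasis. None of those measured passed 2-fold in either direction, beside 28% of all loci. Of 6 loci 5 passed 1 FPKM, 4 of them with values above wild type as deposited, 3 with the median ratio at 0 and 2 after trend removal. Their median difference was 0.51 as deposited, against 0.21 over all loci that passed. SPL7 stood at 12.8 FPKM in Atclb1-1 and 7.32 FPKM in wild type, SPL14 at 36.7 FPKM in Atclb1-1 and 23.8 FPKM in wild type, SPL1 at 52.4 FPKM in Atclb1-1 and 36.5 FPKM in wild type, and SPL16 at 10.2 FPKM in Atclb1-1 and 14.5 FPKM in wild type. SPL8, a gene of anther development, was listed at 0 in both. The median of this group was -0.02 after removal of the trend with length and GC content, against -0.35 for the SPL genes with a site. No test of the difference between these groups was possible.

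Precursors of the microRNAs themselves were hardly measured. Of 12 MIR156 and MIR157 loci 9 were listed at 0 in both libraries, and MIR156C was at 0.0706 FPKM in Atclb1-1 and 0 in wild type. MIR156D was at 695 FPKM in Atclb1-1 and listed at 0 in wild type, and MIR157C was listed at 0 in Atclb1-1 and at 3.23 FPKM in wild type. In TAIR10.1 their annotated precursors measure 118 and 217 nt, and at 118 nt a single read in Atclb1-1 would be worth 0.466 to 0.508 FPKM. On the shorter precursor of MIR156C, 104 nt, it would be worth more, yet MIR156C was listed at 0.0706 FPKM. Whole reads on the annotated precursor length cannot give that value, so the worth of a read at 118 nt cannot be applied to MIR156D. The transcript lengths used by the authors are not known, so the reads behind these values are not known either. Such values say nothing of mature miR156, which was not measured here. Of 5 MIR172 loci none reached 1 FPKM and 4 were listed at 0 in both.

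Genes that make or regulate the microRNA had differences mostly under 2-fold. Of 11 genes of microRNA processing and action all had values above wild type as deposited, and 8 did with the median ratio at 0. Their median was 0.32, against 0.21 over all loci that passed, so most of all these loci were above wild type as deposited too. Of the 11 genes 1 was at least 2-fold higher, beside 17.2% of all loci. That gene was HST, the exportin-5 homologue, at 6.92 FPKM in Atclb1-1 and 2.80 FPKM in wild type. DCL1, the RNase that cuts out microRNAs, was at 10.4 FPKM in Atclb1-1 and 6.39 FPKM in wild type, and AGO1, the main effector, at 38.7 FPKM in Atclb1-1 and 35.4 FPKM in wild type. Of 15 known regulators of MIR156 genes 13 passed 1 FPKM and had a median of 0.63. Of these 13, 2 were higher by 2-fold or more, beside 17.2% of all loci. The higher genes were VAL1, a B3-domain repressor, at 12.8 FPKM in Atclb1-1 and 5.41 FPKM in wild type, and the MADS gene AGL18, at 8.84 FPKM in Atclb1-1 and 3.64 FPKM in wild type. After removal of the trend with length and GC content the medians of these lists were 0.05 and 0.14.

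The AP2-like genes, targets of miR172 and repressors of flowering, were all above their wild type values as deposited, 5 of 6 with the median ratio at 0 and 3 of 6 after trend removal. SNZ and SMZ were at least 2-fold higher, 2 of 6 beside 17.2% of all loci, and SMZ reached 1 FPKM in Atclb1-1 alone. The median of the 6 was 0.37 as deposited, against 0.21 over all loci that passed, and 0.00 after trend removal. SNZ stood at 24.1 FPKM in Atclb1-1 and 10.7 FPKM in wild type, and SMZ at 1.71 FPKM in Atclb1-1 and listed at 0 in wild type. TOE1 was at 51.7 FPKM in Atclb1-1 and 39.6 FPKM in wild type, and TOE2 at 6.83 FPKM in Atclb1-1 and 5.11 FPKM in wild type.

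Flowering genes known as targets of SPL proteins were within 2-fold where measured, while 28% of all loci were past 2-fold. SOC1, a floral integrator, stood at 224 FPKM in Atclb1-1 and 203 FPKM in wild type. FUL, a MADS gene of the floral transition, was at 51.4 FPKM in Atclb1-1 and 41.6 FPKM in wild type. AGL42, a relative of SOC1, was at 55.8 FPKM in Atclb1-1 and 28.0 FPKM in wild type, a log2 difference of 0.97. LFY, the floral meristem regulator, was listed at 0 in both libraries, and AP1 was at 0.0459 FPKM in Atclb1-1 and listed at 0 in wild type.

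Of 5 leaf genes known to lie downstream of SPL9, 4 were at least 2-fold higher, beside 17.2% of all loci, and TCL1 was lower, beside 10.8%. TCL1 reached 1 FPKM in wild type alone. TCL1 and TRY encode small MYB repressors of trichome formation that SPL9 activates, and they differed in opposite directions. TCL1 stood at 0.506 FPKM in Atclb1-1, against 6.86 FPKM in wild type, and TRY at 21.3 FPKM in Atclb1-1, against 2.95 FPKM in wild type. The anthocyanin genes DFR and LDOX, which SPL9 is known to lower, stood at 53.3 and 24.2 FPKM in Atclb1-1, against 3.22 and 1.26 FPKM in wild type. The flavonoid hydroxylase gene AT5G07990 stood at 7.30 FPKM in Atclb1-1, against 3.04 FPKM in wild type. SPL9 itself had a log2 difference of -0.31 between the same libraries. SPL9 protein was not measured, and the part of SPL9 in these differences was not tested.

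Other transcription factor families under microRNA control did not all differ in the same direction. Of 5 TCP genes with a miR319 site, which restrain leaf cell division, 1 passed 2-fold upward, beside 17.2% of all loci. Downward 1 of the 5 passed, beside 10.8%, and the median was -0.73. TCP3 was at 13.1 FPKM in Atclb1-1 and 44.6 FPKM in wild type, and TCP10 at 44.5 FPKM in Atclb1-1 and 19.4 FPKM in wild type. Of 7 GRF genes with a miR396 site, which promote leaf cell division, 3 passed 1 FPKM, and GRF2 and GRF3 did so through wild type alone. GRF1 was at 5.64 FPKM in Atclb1-1 and 7.80 FPKM in wild type, GRF2 at 0.499 FPKM in Atclb1-1 and 1.95 FPKM in wild type, and GRF3 at 0.841 FPKM in Atclb1-1 and 3.06 FPKM in wild type. All 3 that passed were below wild type. With no filter 6 of the 7 were below wild type and 1 was above. The 1 above was GRF8, at only 0.259 FPKM in Atclb1-1 and 0.0448 FPKM in wild type. The 5 HD-ZIP III genes of leaf polarity had a median of 0.13 and none passed 2-fold, beside 28% of all loci. Of 6 genes of the trans-acting siRNA branch of leaf phase change, 1 was at least 2-fold higher, beside 17.2% of all loci. That gene was ARF4, at 22.5 FPKM in Atclb1-1 and 8.35 FPKM in wild type. ARF3 was at 9.61 FPKM in Atclb1-1 and 10.7 FPKM in wild type. Of the measured genes, 3 SPL genes were above wild type and 5 below, 1 TCP gene above and 4 below, and 4 HD-ZIP III genes above and 1 below. No GRF gene that passed the filter was above.

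**Figure D5:**
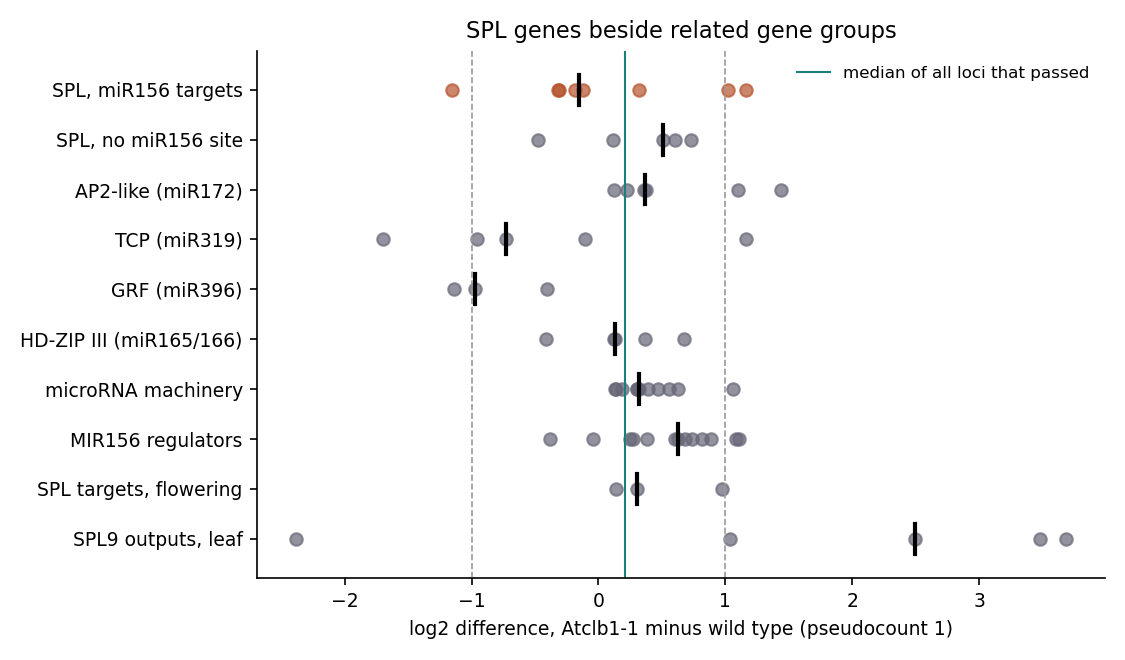
Each point is a gene that reached 1 FPKM in a library, placed by its log2 difference (x axis, Atclb1-1 minus wild type), with a black bar at each group's median, dashed lines at 2-fold and a line at the median of all loci, 0.21. The SPL genes with a miR156 site spread from -1.16 to 1.16 around a median of -0.15, and the SPL genes without one from -0.47 to 0.73 around 0.51.

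Markers of dividing young leaf tissue and clock genes differed between the same libraries. The summed level of 5 genes of dividing leaf cells was 2.31 FPKM in Atclb1-1 and 9.86 FPKM in wild type. The 3 of them that passed 1 FPKM were at least 2-fold lower, beside 10.8% of all loci, but CYCD3;1 and CDKB2;1 passed through wild type alone. CYCD3;1 was at 0.560 FPKM in Atclb1-1 and 2.51 FPKM in wild type, and CDKB2;1 at 0.458 FPKM in Atclb1-1 and 2.32 FPKM in wild type. The median of the 3 was -1.17, and -0.43 with a pseudocount of 5. The 4 dawn-phased clock genes CCA1, LHY, RVE8 and RVE1 summed to 332 FPKM in Atclb1-1 and 16.3 FPKM in wild type, and the 4 evening-phased genes ELF4, LUX, TOC1 and FKF1 to 18.6 FPKM in Atclb1-1 and 559 FPKM in wild type. The part of leaf stage and of the time of harvest in the SPL differences was not tested.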

How the data were processed

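RNA-seq of leaves gave 1 library for Atclb1-1 and 1 for wild type, grouped by the genotype labels. The deposited values are FPKM, named so per the file headers. The submitters' processing notes name TopHat 1.3.2, Cuffdiff and TAIR10. Settings, annotation release and read length are not given in the labels or headers. Differences were log2((Atclb1-1 FPKM + 1)/(wild type FPKM + 1)), which understates low genes. A locus was kept if either library reached 1 FPKM, and was counted past 2-fold. Folds of single genes are plain FPKM ratios. The members and lists were chosen with earlier results of these data known. All 10 SPL genes, SPL13B and AtCLB were named, and up to 4 members with the largest difference in other lists. Other members named, such as AGO1 and ARF3, and the overlapping genes were chosen after their values were seen. Sequences, positions and lengths came from the RefSeq TAIR10.1 genome and annotation, which 32802 of 33557 loci matched. Depth came from the spacing of low FPKM, fragment numbers are estimates from the longest annotated transcript, and reads per gene were not recovered. Calculations used Python 3.11.15, numpy 2.4.6 and pandas 2.3.3, and the counting step was tested on simulated data.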

Additional observations from a re-analysis of the deposited data

How the results depend on the processing

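No paired analysis was possible because each genotype has 1 library and the result comes from no test. A value with no replicates was taken as moved when it shifted by 0.25 or more on the log2 scale. Each of the 8 measured SPL genes kept its sign under every alternative, with SPL3 between -1.35 and -0.95, SPL11 between 0.89 and 1.26 and SPL10 between 0.55 and 1.15. The median of the SPL genes ran from -0.35 to -0.06. The count of SPL genes at least 2-fold higher was 0 with a pseudocount of 5, with the median ratio set to 0 (shifting log2 ratios by 0.21), with the length and GC trend removed and at 4-fold, instead of 2. The count at least 2-fold lower was 0 with a pseudocount of 5 and at 4-fold, instead of 1. Over all loci, 1774 were higher and 1058 lower with a pseudocount of 5, and 961 higher and 480 lower at 4-fold. Higher loci made 61.5% of all loci past 2-fold, 50.7% with the median ratio set to 0 and 49% with the trend removed. The removal of the trend with length and GC content, added after the data had been seen, moved the medians to -0.025 for SPL genes without a site, 0.00 for AP2-like genes (-0.0006), 2.19 for leaf genes downstream of SPL9, 0.045 for microRNA processing, 0.14 for MIR156 regulators, -0.31 for the trans-acting siRNA branch, -1.03 for TCP, -1.26 for GRF and -0.26 for HD-ZIP III genes. The leaf genes downstream of SPL9 had a median of 2.50, which was 2.81 with a pseudocount of 0.1 and 1.72 with one of 5. That list pools genes that SPL9 activates with genes that it lowers, and ran from -2.38 to 3.69. Its median is the value of TRY and is no measure of SPL9 activity. GRF genes had a median of -0.98, which was -1.75 with a pseudocount of 0.1, -0.34 with one of 5, and -0.41 both with no filter and with a filter at 5 FPKM. The cause of these shifts was not tested. Depth limits SPL15, which rests on a few reads per library.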
